A study of Mus musculus with 10 samples.

Results

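RNA-seq libraries of MC3T3-E1 cells kept in osteogenic medium for 21 d were compared with libraries of the same cells at 14 d. Samples were taken by their labels, with 2 replicates, named A and B, at each time, so the comparison concerns 4 of the 10 samples of the series. The other 6, of subconfluent, confluent and 24 h cells, entered the fit to estimate the spread between replicates, and confluent against subconfluent cells are given beside some lists. MC3T3-E1 is a clonal mouse line of pre-osteoblasts. Both groups had grown in αMEM with 10% iFBS, penicillin and streptomycin, to which β-glycerophosphate at 10 mM and ascorbic acid at 50 µg/ml were added, and their labels differ in time alone. Sequencing reads were paired and 51 bp long. The deposited table holds 136785258 and 48799711 counts on genes for replicates A and B at 14 d, and 51970507 and 119183287 at 21 d. Libraries of both times carry the same pair of index sequences. Replicate A at 14 d and replicate B at 21 d were each sequenced in 2 lanes.

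Osteoblasts secrete a matrix made mainly of type I collagen, and then mineralise it with the help of phosphatases that release inorganic phosphate. Ascorbic acid is a cofactor of the enzymes that hydroxylate collagen, and β-glycerophosphate is a source of phosphate, so the medium permits both steps. A secretory cell of this kind depends on chaperones of the endoplasmic reticulum (ER) and on a steady supply of amino acids and lipids, and the comparison asks how these programmes differ between an earlier and a later week of culture.

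Of 20808 genes tested with edgeR's quasi-likelihood test, 826 (3.97%) were called, meaning that the Benjamini-Hochberg adjusted p was under 0.05 and the levels differed more than 2-fold. Higher calls at 21 d numbered 317 (1.52%) and lower calls 509 (2.45%). The lower calls held 30 of 30 genes of mitosis and 19 of 23 of cholesterol synthesis. The higher calls held 14 of 22 genes of ER folding, 11 of 23 linked to the transcription factor ATF4 and amino acid supply, and 13 of 29 that interferon stimulates. Without any bound on the fold, 784 genes were higher and 1239 lower. Over all genes tested, log2 fold changes had a median of -0.03 and quartiles at -0.28 and 0.24. In each of the 826 called genes both samples of one time lay outside both of the other, which was also so for 13970 (67.1%) of all genes tested. Levels are given as deposited RPKM (reads per kilobase of gene, scaled to sequencing depth), replicate A before replicate B, and each log2 fold change is 21 d against 14 d with 2 samples a group.

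**Figure D1:**
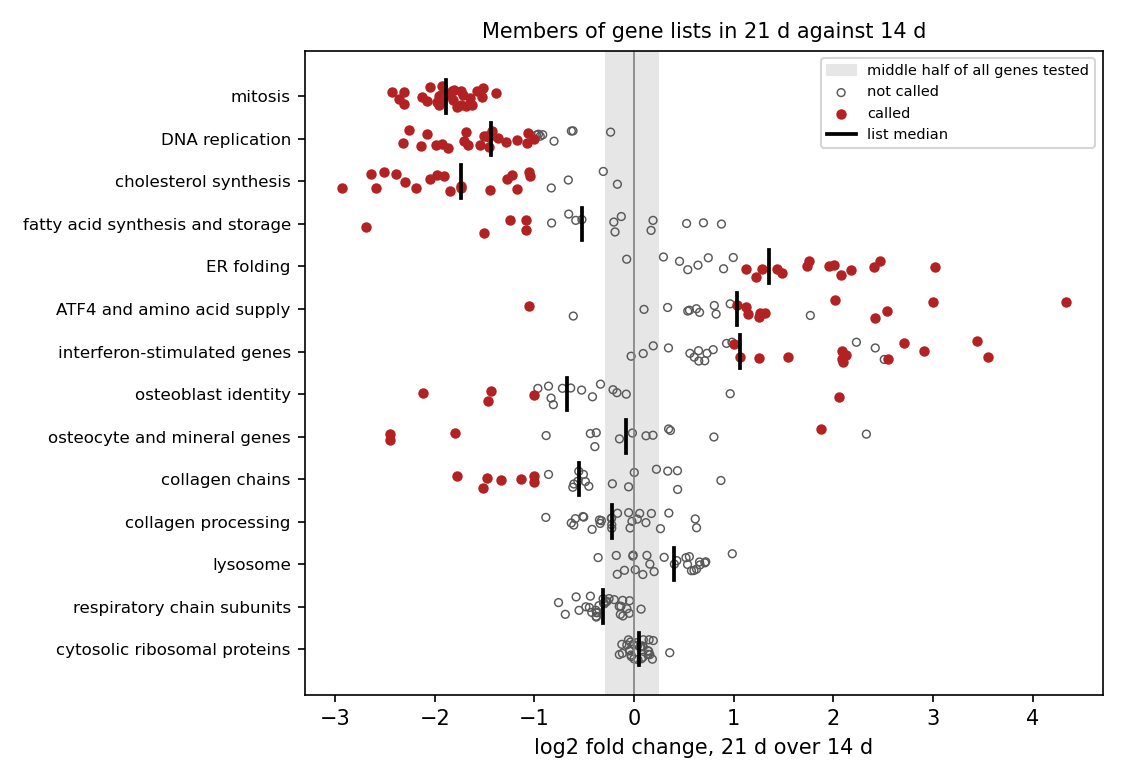
Log2 fold change, 21 d against 14 d, of each tested member (points) of 14 gene lists, filled red where called and open where not, with a bar at the list's median and a grey band over the middle 50% of all genes tested. Every mitosis point lies left of the band, and the median of ER folding is at 1.36.

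Transcripts that mark osteoblasts were abundant at both times. Col1a1, the main chain of type I collagen, was at 10422 and 8996 RPKM at 14 d and 5287 and 4899.9 RPKM at 21 d. Col1a2, its other chain, was at 5444 and 5004 RPKM at 14 d and 3086 and 2975 RPKM at 21 d. Bone sialoprotein, Ibsp, a mineral-binding matrix protein, was at 4081 and 4374 RPKM at 14 d and 2570.0 and 2509 RPKM at 21 d. Each of these 3 was among the abundant transcripts of all 4 libraries. Sparc, a collagen-binding glycoprotein of bone, was at 6068 and 5763 RPKM at 14 d and 3782 and 3782 RPKM at 21 d. Osteocalcin, Bglap, a late marker of osteoblasts, was at 1197 and 1034 RPKM at 14 d and 1087 and 995 RPKM at 21 d (log2 fold change -0.17, adjusted p = 0.91), and 56.3% of its 51-base words, the stretches as long as a read, occur in other genes. Each of the 4 libraries therefore held the main transcripts of bone matrix. Of the 18 genes of the osteoblast list, 0 were at 0 counts in these libraries.

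The mitosis list holds 30 genes that act in mitosis or drive mitotic genes, and 30 of 30 were called lower at 21 d, against 2.45% of all genes tested. Their median log2 fold change was -1.89, and the list ranged from -2.43 to -1.39. Their summed level was 557 and 527 RPKM at 14 d and 138 and 189.9 RPKM at 21 d. Mybl2, a transcription factor that drives mitotic genes, was at 3.90 and 3.20 RPKM at 14 d and 0.594 and 0.780 RPKM at 21 d (log2 fold change -2.43, standard error 0.17, adjusted p = 4.2e-04). Ttk, a kinase of the spindle checkpoint, was at 2.58 and 2.58 RPKM at 14 d and 0.35 and 0.684 RPKM at 21 d (log2 fold change -2.36, standard error 0.26, adjusted p = 0.0019). Bub1, a kinase of the same checkpoint, was at 6.13 and 5.73 RPKM at 14 d and 0.838 and 1.64 RPKM at 21 d (log2 fold change -2.31, standard error 0.29, adjusted p = 0.0029). For these 3 genes both 21 d libraries lay below both 14 d libraries, and replicate B was the higher of the pair at 21 d. Top2a (GRCm38 chr11:98992943-99024189, minus strand), the topoisomerase that untangles chromosomes, was the list's most abundant gene by CPM (counts scaled to library size), at 34.3 and 32.0 RPKM at 14 d and 8.18 and 12.1 RPKM at 21 d (log2 fold change -1.78, standard error 0.20, adjusted p = 0.0021). Its 21 d replicates also differed from each other, and the groups did not overlap.

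Of 30 genes of DNA replication, 22 were called lower and 0 higher, and 28 had an adjusted p under 0.05. The median was -1.44 and the summed level 483 and 453 RPKM at 14 d and 206 and 225 RPKM at 21 d. Mcm10 and Mcm5 serve the helicase that opens origins. Mcm10 was at 2.36 and 1.99 RPKM at 14 d and 0.380 and 0.532 RPKM at 21 d (log2 fold change -2.31, standard error 0.18, adjusted p = 5.8e-04). Mcm5 was at 27.4 and 25.7 RPKM at 14 d and 5.34 and 6.32 RPKM at 21 d (log2 fold change -2.26, standard error 0.12, adjusted p = 2.0e-04). Pole, the leading-strand polymerase, was at 3.01 and 2.63 RPKM at 14 d and 0.538 and 0.803 RPKM at 21 d (log2 fold change -2.14, standard error 0.26, adjusted p = 0.0029). All 3 were low in both 21 d libraries. Rrm1, the large subunit of ribonucleotide reductase and the list's most abundant gene by CPM, fell less, from 47.5 and 46.9 to 31.9 and 32.3 RPKM (log2 fold change -0.63, standard error 0.12, adjusted p = 0.018), which is under 2-fold. Its adjusted p did not pass with library size in place of TMM or with any one library left out (0.10 to 0.14). In confluent against subconfluent cells, a comparison that shares no sample with this one, the median was -0.35 for mitosis and -0.45 for DNA replication.

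Promoters of these lists were searched for motifs as a description, with no test. RefSeq promoters (GRCm38.p6, 250 bases before to 50 after the start) were matched for 24 of the 30 mitosis genes and 23 of the 30 replication genes. TTTGAA, the letters of the cell cycle homology region, was found on either strand in 17 (70.8%) of the mitosis promoters, in 18.1% of all 27025 promoters and in 12.6% of the 11703 promoters of genes tested. CCAATC, the letters of a CCAAT box, was found in 13 (54.2%), in 16.6% of all promoters and in 20.7% of those of genes tested. Both motifs occurred in 11 (45.8%), against 2.69% and 2.68%. TTTGGCGC, TTTCGCGC or TTTCCCGC, the letters of E2F sites, were found in 10 (43.5%) of the replication promoters, in 1.91% of all and in 3.28% of those of genes tested. A match describes letters in this window and shows no binding. Top2a is shown from chr11:99024190-99024413 (minus strand) for its 2 motifs, with the matches in capitals, those on the opposite strand reading TTCAAA and GATTGG, and Mcm5 from chr8:75109311-75109412 (plus strand) with a run of overlapping E2F letters in capitals.
Top2a: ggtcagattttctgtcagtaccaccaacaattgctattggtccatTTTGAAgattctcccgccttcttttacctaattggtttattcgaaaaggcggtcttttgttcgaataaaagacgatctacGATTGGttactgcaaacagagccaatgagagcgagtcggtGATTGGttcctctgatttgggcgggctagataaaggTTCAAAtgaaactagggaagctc
Mcm5: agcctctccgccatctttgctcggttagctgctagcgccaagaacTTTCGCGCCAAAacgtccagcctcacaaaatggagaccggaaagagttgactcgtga

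Genes of cholesterol synthesis formed the next group of falls. Of 23 tested, 19 were called lower and 0 higher, with a median of -1.74 and a summed level of 592 and 546 RPKM at 14 d and 192 and 208 RPKM at 21 d. Fdps (GRCm38 chr3:89093588-89101959, minus strand), which makes farnesyl diphosphate, was at 72.0 and 60.5 RPKM at 14 d and 9.72 and 12.5 RPKM at 21 d (log2 fold change -2.64, standard error 0.22, adjusted p = 7.2e-04). Idi1, the isomerase one step before it, was at 14.2 and 13.9 RPKM at 14 d and 2.34 and 2.56 RPKM at 21 d (log2 fold change -2.59, standard error 0.20, adjusted p = 5.9e-04). Both were several-fold lower in both 21 d libraries. Srebf2, the transcription factor that drives this pathway and its most abundant member by CPM, fell as well, from 43.9 and 43.0 to 19.9 and 20.6 RPKM (log2 fold change -1.17, standard error 0.16, adjusted p = 0.0050), and without replicate A at 21 d its adjusted p was 0.056.

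Processed pseudogenes were among the largest falls beside these genes. Gm13502 was at 27.2 and 27.1 RPKM at 14 d and 3.97 and 4.94 RPKM at 21 d (log2 fold change -2.67, standard error 0.28, adjusted p = 0.0014), and 100% of its 51-base words also occur in Idi1. Gm5873 was at 31.7 and 29.0 RPKM at 14 d and 4.64 and 5.26 RPKM at 21 d (log2 fold change -2.69, standard error 0.17, adjusted p = 3.0e-04). Gm3571 was at 67.3 and 57.7 RPKM at 14 d and 10.3 and 12.3 RPKM at 21 d (log2 fold change -2.54, standard error 0.21, adjusted p = 6.7e-04). They share 23.1% and 52.1% of their words with Fdps, so reads of the parent gene cannot be told apart from their own over those stretches. Conversely, 26.1% of the words of Fdps and 25.2% of those of Idi1 occur in some other gene. Over all 2890 processed pseudogenes tested, 57 were called lower and 5 higher, and among 13964 protein-coding genes 416 were lower and 269 higher.

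CCAATC occurred in 13 (81.25%) of the 16 cholesterol promoters that were matched, against 16.6% of all promoters and 20.7% of those of genes tested. It also occurred in 10 (43.5%) of 23 matched promoters of DNA replication, and among lists whose calls were mostly higher in 12 (66.7%) of 18 of ER folding and in 10 (45.5%) of 22 of the ATF4 list. In the interferon list it occurred in 1 (4.76%) of 21. Over all called genes with a matched promoter it occurred in 19.1% of those higher and 39.6% of those lower. The promoter of Idi1 is shown at chr13:8885515-8885605 (plus strand, GRCm38.p6) as an example with 1 match, read on the opposite strand as GATTGG and set in capitals.
Idi1: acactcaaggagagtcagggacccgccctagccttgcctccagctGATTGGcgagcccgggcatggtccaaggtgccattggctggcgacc

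Fatty acid genes moved in part. Of 17 tested, 5 were called lower and 0 higher (median -0.52). Fads2 (GRCm38 chr19:10062765-10101746, minus strand), the desaturase that starts the synthesis of long polyunsaturated fatty acids, was at 47.3 and 43.9 RPKM at 14 d and 6.82 and 8.06 RPKM at 21 d (log2 fold change -2.69, standard error 0.21, adjusted p = 5.8e-04). Fads1, its partner desaturase, was at 81.9 and 75 RPKM at 14 d and 33.3 and 36.3 RPKM at 21 d (log2 fold change -1.25, standard error 0.11, adjusted p = 8.7e-04). Elovl6, an elongase, was at 4.44 and 4.09 RPKM at 14 d and 1.57 and 1.58 RPKM at 21 d (log2 fold change -1.51, standard error 0.13, adjusted p = 8.5e-04). Both 21 d libraries were low for each of the 3. The list's calls numbered 4 without replicate A at 14 d and 3 without any other single library. Scd2, a stearoyl-CoA desaturase and the list's most abundant gene, was at 302 and 305 RPKM at 14 d and 188 and 173 RPKM at 21 d, but with a standard error of 0.67 it did not pass (log2 fold change -0.83, adjusted p = 0.55). Scd2 did pass the adjusted p threshold without the 24 h samples. It also passed with only the 14 d and 21 d samples fitted, with no block, the replicate block or the crossed block.

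Chaperones of the ER rose. In the ER folding list 14 of 22 genes were called higher and 0 lower, against 1.52% of all genes tested, the median was 1.36, and the summed level was 1356 and 1330.2 RPKM at 14 d and 4341 and 4671 RPKM at 21 d. Hspa5 (GRCm38 chr2:34771970-34777547, plus strand), the main Hsp70 of the ER, was at 147 and 143 RPKM at 14 d and 770.1 and 844 RPKM at 21 d (log2 fold change 2.40, standard error 0.10, adjusted p = 1.6e-04). Calr, a calcium-binding lectin chaperone, was at 174 and 166 RPKM at 14 d and 932 and 1041 RPKM at 21 d (log2 fold change 2.47, standard error 0.11, adjusted p = 1.6e-04). Both were among the most abundant transcripts that rose, and their replicates lay close together at either time. Sdf2l1, a partner of ER Hsp40 proteins, went from 12.7 and 12.3 to 96.3 and 116 RPKM (log2 fold change 3.02, standard error 0.21, adjusted p = 4.2e-04). Hsp90b1, the Hsp90 of the ER, was at 164 and 167 RPKM at 14 d and 553 and 609 RPKM at 21 d (log2 fold change 1.74, standard error 0.11, adjusted p = 3.0e-04). Of the disulfide isomerases, Pdia3 was at 240.0 and 230.1 RPKM at 14 d and 561 and 594 RPKM at 21 d (log2 fold change 1.22, standard error 0.10, adjusted p = 6.1e-04). All 3 rose by over 2-fold. Pdia6 was at 86.4 and 89.2 RPKM at 14 d and 253 and 266 RPKM at 21 d (log2 fold change 1.49, standard error 0.14, adjusted p = 9.1e-04). For each of these 6 genes the lower 21 d library was more than 2-fold above the higher 14 d library. Exons of Pdia3 share 18 bases with Catsper2. In confluent against subconfluent cells the median of the list was -0.23.

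ATF4 is a transcription factor whose translation increases when amino acids run short or the ER is under stress. Of 23 genes in the list of its targets and of amino acid supply, 11 were called higher and 1 lower (median 1.03). Trib3 (GRCm38 chr2:152337422-152344032, minus strand), a pseudokinase, was at 5.06 and 3.41 RPKM at 14 d and 88.4 and 92.3 RPKM at 21 d (log2 fold change 4.34, standard error 0.22, adjusted p = 2.0e-04). Ddit3, the factor also called CHOP, was at 19.6 and 16.5 RPKM at 14 d and 158 and 145 RPKM at 21 d (log2 fold change 3.0, standard error 0.27, adjusted p = 8.5e-04), and shares 68 exon bases with Mars, whose log2 fold change was 0.56. Chac1, an enzyme that degrades glutathione, was at 5.27 and 4.12 RPKM at 14 d and 29.5 and 27.8 RPKM at 21 d (log2 fold change 2.53, standard error 0.16, adjusted p = 3.0e-04). These 3 genes were low in both 14 d libraries and high in both 21 d libraries. Atf5, a related factor, was among the most abundant genes that rose, at 63.5 and 54.3 RPKM at 14 d and 342 and 319 RPKM at 21 d (log2 fold change 2.41, standard error 0.11, adjusted p = 1.6e-04). Atf5 rose with the 3 genes before it. Slc3a2, the heavy chain of several amino acid carriers, was at 97.3 and 87.4 RPKM at 14 d and 227 and 237 RPKM at 21 d (log2 fold change 1.25, standard error 0.11, adjusted p = 8.6e-04). Its light chain Slc7a11, which imports cystine, was the list's 1 lower call, from 10.9 and 10.6 to 5.05 and 5.84 RPKM (log2 fold change -1.06, standard error 0.13, adjusted p = 0.0024). The call of Slc7a11 was lost, with a change under 2-fold, with library size or upper-quartile factors in place of TMM, with limma and without replicate A at 21 d. Gdf15, a secreted stress factor on the list of CDK inhibitors and p53 targets, was at 0.986 and 0.803 RPKM at 14 d and 5.41 and 5.83 RPKM at 21 d (log2 fold change 2.57, standard error 0.24, adjusted p = 9.9e-04).

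TGATGNAA, the letters of a C/EBP-ATF composite element, occurred on either strand in 7 (31.8%) of 22 matched promoters of the ATF4 list, in 4.06% of all promoters and in 2.45% of those of genes tested. Chac1, which rose, and Slc7a11, which fell, are both shown because the motif occurs in each, at chr2:119351004-119351101 (plus strand) and chr3:50443614-50443724 (minus strand), with matches in capitals.
Chac1: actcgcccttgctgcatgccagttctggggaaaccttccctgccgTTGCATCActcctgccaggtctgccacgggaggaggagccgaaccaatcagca
Slc7a11: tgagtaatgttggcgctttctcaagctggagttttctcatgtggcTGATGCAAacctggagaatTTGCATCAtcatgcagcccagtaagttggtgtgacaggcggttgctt

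Interferon-stimulated genes, which cells switch on in antiviral defence, were mostly low. Of 29 tested, 13 were called higher and 0 lower, 28 had a positive log2 fold change, and the median was 1.07. Their summed level was 129 and 132 RPKM at 14 d and 252 and 267 RPKM at 21 d. Ifi44, an interferon-induced protein, was at 0.238 and 0.284 RPKM at 14 d and 3.04 and 3.38 RPKM at 21 d (log2 fold change 3.56, standard error 0.17, adjusted p = 1.9e-04). Usp18, which removes ISG15 from proteins and damps the receptor, was at 0.158 and 0.155 RPKM at 14 d and 1.71 and 1.88 RPKM at 21 d (log2 fold change 3.44, standard error 0.28, adjusted p = 6.8e-04). Oasl2, of the oligoadenylate synthetase family, was at 0.406 and 0.369 RPKM at 14 d and 2.94 and 3.22 RPKM at 21 d (log2 fold change 2.91, standard error 0.25, adjusted p = 7.6e-04). Levels of all 3 were under 1 RPKM in both 14 d libraries. Lgals3bp, a secreted glycoprotein and the most abundant member by CPM, was at 23.8 and 23.5 RPKM at 14 d and 37.7 and 38 RPKM at 21 d (log2 fold change 0.60, standard error 0.10, adjusted p = 0.011), under 2-fold and with an adjusted p of 0.078 to 0.091 with any one library left out. The number of calls depended on the libraries, being 8 without replicate A at 14 d and 9 without any other single library.

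Genes of MHC class I presentation, several of them interferon targets, had a median of 0.18, and 12 of 15 had a positive log2 fold change. At an adjusted p under 0.05, 3 were higher and 0 lower. Of the 15, 1 (6.7%) was called, against 3.97% of all genes tested. That gene, Nlrc5, the transactivator of class I genes, was at 0.0570 and 0.0598 RPKM at 14 d and 0.154 and 0.137 RPKM at 21 d (log2 fold change 1.24, standard error 0.25, adjusted p = 0.024), a level near 0 in all 4 libraries. Its adjusted p was between 0.097 and 0.16 with any one library left out, and its call was also lost with the replicate block and with limma. B2m, the class I light chain, was at 383 and 392 RPKM at 14 d and 464 and 450.2 RPKM at 21 d (log2 fold change 0.16, adjusted p = 0.41).

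The letters GAAA, any 2 bases and GAAA, which form the core of an interferon-response element, occurred on either strand in 11 (52.4%) of 21 matched promoters of the interferon list, in 3.49% of all promoters and in 3.08% of those of genes tested. Isg15, a ubiquitin-like modifier, and Ifit1, an RNA-binding antiviral protein, are shown because their matches repeat, at chr4:156200830-156200941 (minus strand) and chr19:34640740-34640858 (plus strand), with capitals on the matches. Both genes were chosen after their values were seen. Among the other genes with a match, Ifit3 and Ifih1 were called higher. Oas1a, Oas3, Stat2, Ddx58, Bst2 and Eif2ak2 were not called, and Rsad2 was not tested. Isg15 was at 1.93 and 1.81 RPKM at 14 d and 5.68 and 5.79 RPKM at 21 d (log2 fold change 1.54, standard error 0.19, adjusted p = 0.0030). Ifit1 was at 0.293 and 0.263 RPKM at 14 d and 1.58 and 1.86 RPKM at 21 d (log2 fold change 2.55, standard error 0.31, adjusted p = 0.0027). Both were low at 14 d and higher in both 21 d libraries.
Isg15: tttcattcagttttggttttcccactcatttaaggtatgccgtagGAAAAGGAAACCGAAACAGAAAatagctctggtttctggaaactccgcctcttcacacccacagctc
Ifit1: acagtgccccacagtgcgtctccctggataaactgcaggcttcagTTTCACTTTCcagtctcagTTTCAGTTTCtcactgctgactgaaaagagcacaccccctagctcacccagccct

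**Figure D2:**
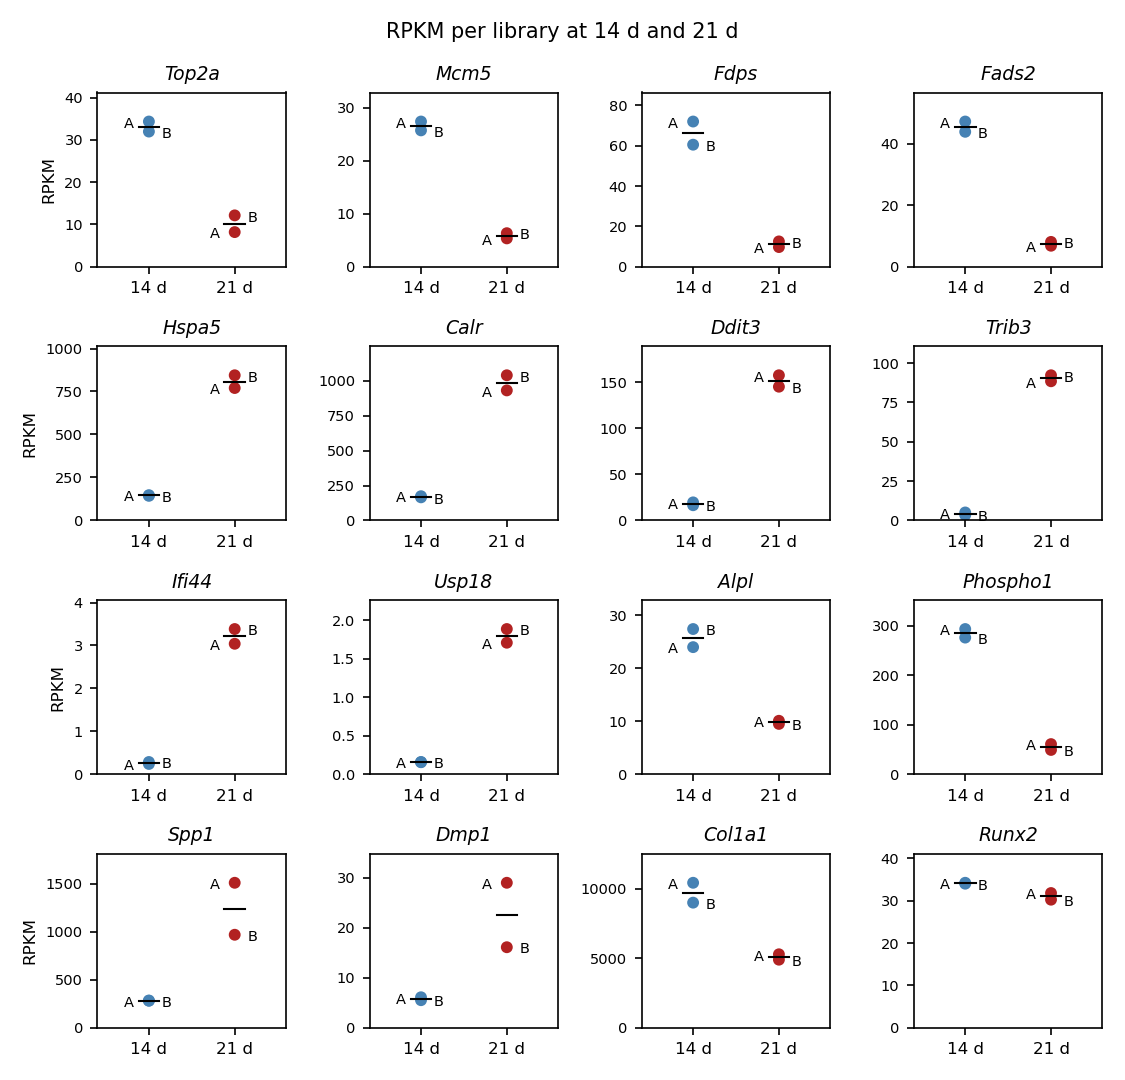
RPKM of 16 genes in each library at 14 d and 21 d, replicates A and B as points and the mean of 2 as a bar, with each axis starting at 0. Fdps and Mcm5 are low in both 21 d libraries, Hspa5 and Trib3 are high in both, and Runx2 lies between 30.2 and 34.2 RPKM in all 4.

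Of 18 osteoblast genes 16 had a negative and 2 a positive log2 fold change, with 8 lower and 2 higher at an adjusted p under 0.05, and the median was -0.68. By the 2-fold bound as well, 4 were called lower and 1 higher. Ifitm5, a membrane protein found in mineralising osteoblasts, was at 152 and 159 RPKM at 14 d and 40.2 and 35.0 RPKM at 21 d (log2 fold change -2.12, standard error 0.22, adjusted p = 0.0015). Omd, the keratan sulfate proteoglycan osteomodulin, was at 122 and 180.5 RPKM at 14 d and 53.4 and 64.4 RPKM at 21 d (log2 fold change -1.44, standard error 0.23, adjusted p = 0.0082), and its adjusted p was 0.088 without replicate A at 21 d. Alkaline phosphatase, Alpl, had the RPKM values 24.0 and 27.4 at 14 d and 10.1 and 9.48 at 21 d, low in both 21 d libraries. Spp1, the phosphoprotein osteopontin, went the other way, from 284 and 283 to 1509 and 968 RPKM (log2 fold change 2.05, standard error 0.20, adjusted p = 0.0010). Replicates of Spp1 at 21 d were apart, yet both were several-fold above 14 d. Of the 4 lower calls, 2 were left without replicate A at 21 d. Among the list's transcription factors Runx2 was at 34.2 and 34.0 RPKM at 14 d and 31.8 and 30.2 RPKM at 21 d, a range in which neither time could be set apart by the test (log2 fold change -0.21, adjusted p = 0.44). Sp7, which acts after Runx2, was at 90.9 and 97.7 RPKM at 14 d and 57.5 and 54.0 RPKM at 21 d, a fall of less than 2-fold.

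Genes of osteocytes and mineral gave 3 lower and 1 higher calls among 16 tested (median -0.08). Phospho1, a phosphatase of matrix vesicles, was at 293 and 276 RPKM at 14 d and 60.7 and 49.0 RPKM at 21 d (log2 fold change -2.45, standard error 0.12, adjusted p = 1.6e-04). Its exons share 1708 bases with Abi3 on the opposite strand (log2 fold change -2.35) and 1818 with Zfp652 on its own (log2 fold change -0.01). Tnfrsf11b, the decoy receptor osteoprotegerin, was at 71.6 and 77.1 RPKM at 14 d and 15.8 and 13.0 RPKM at 21 d (log2 fold change -2.44, standard error 0.20, adjusted p = 6.3e-04). Smpd3, a sphingomyelinase needed for mineralisation, was at 91.2 and 93.8 RPKM at 14 d and 30.3 and 25.8 RPKM at 21 d (log2 fold change -1.80, standard error 0.40, adjusted p = 0.032), with adjusted p-values between 0.12 and 0.20 when any one library was left out, and it also lost its call with library size in place of TMM, with the replicate block and with limma on log2(RPKM + 0.1). It shares 247 exon bases with Prmt7 on the opposite strand (log2 fold change -1.39). Each of the 3 was lower in both 21 d libraries. Dmp1, a phosphoprotein of osteocytes, was at 6.12 and 5.53 RPKM at 14 d and 29.0 and 16.1 RPKM at 21 d, high in both 21 d libraries with replicate A the higher, and its adjusted p was 0.053 without replicate B at 14 d. Mgp, an inhibitor of mineralisation and the list's most abundant gene, was at 4625 and 3886 RPKM at 14 d and 3367 and 3234 RPKM at 21 d, with both 21 d libraries below 14 d but no call (log2 fold change -0.44, adjusted p = 0.25). Without the 24 h samples Mgp passed the adjusted p threshold, under 2-fold. The same held with only the 14 d and 21 d samples fitted, with no block, the replicate block or the crossed block.

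Collagen chains had 7 lower calls and 0 higher among 23 tested (median -0.56). Col11a2, a chain of type XI collagen, was at 201 and 219 RPKM at 14 d and 64.2 and 64.8 RPKM at 21 d (log2 fold change -1.78, standard error 0.18, adjusted p = 0.0012). Col2a1, the chain of type II collagen, was at 202 and 210.4 RPKM at 14 d and 73.0 and 78.4 RPKM at 21 d (log2 fold change -1.52, standard error 0.13, adjusted p = 7.6e-04). Col24a1, a fibrillar chain, was at 5.73 and 5.13 RPKM at 14 d and 2.10 and 2.00 RPKM at 21 d (log2 fold change -1.48, standard error 0.27, adjusted p = 0.015). All 3 were lower in both 21 d libraries, though the adjusted p of Col24a1 was between 0.079 and 0.12 with any one library left out. Col1a1 (GRCm38 chr11:94936224-94953042, plus strand), the most abundant called gene of all, lay at the 2-fold bound with log2 fold change -1.0, standard error 0.21, adjusted p = 0.026. Its adjusted p was 0.13 to 0.17 with any one library left out, and of the other alternatives its call was kept only with DESeq2, with DESeq2 size factors in edgeR and with the gene length trend removed. Over the alternatives run its log2 fold change was between -1.09 and -0.92. The number of collagen calls was 2 or 3 with any one library left out.

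Enzymes and chaperones that modify or cross-link collagen had 0 calls by edgeR among 26 tested, although at an adjusted p under 0.05 and under 2-fold 5 were lower and 1 higher, at an unadjusted p under 0.05 10 were lower and 2 higher, and DESeq2 called 0 (median -0.22). Serpinh1, the collagen chaperone and the list's most abundant gene, was at 738 and 719 RPKM at 14 d and 819 and 846 RPKM at 21 d (log2 fold change 0.12, adjusted p = 0.61). Among 18 matrix proteases and inhibitors (median 0.15) 1 (5.6%) was called, against 3.97% of all genes tested. The call was Timp3, a matrix-bound protease inhibitor that rose from 21.4 and 20.5 to 68.4 and 59.7 RPKM (log2 fold change 1.54, standard error 0.18, adjusted p = 0.0024). Mmp2, the gelatinase, was at 593 and 572 RPKM at 14 d and 554 and 523 RPKM at 21 d and did not pass (log2 fold change -0.19, adjusted p = 0.31).

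Of 28 proteoglycans and matricellular proteins 2 were called higher and 2 lower (median -0.09). Members of the CCN family of secreted proteins went both ways. Ccn5 was at 2.02 and 2.37 RPKM at 14 d and 7.09 and 7.42 RPKM at 21 d (log2 fold change 1.66, standard error 0.15, adjusted p = 8.5e-04) and rose. Ccn4 was at 14.4 and 15.9 RPKM at 14 d and 7.66 and 6.33 RPKM at 21 d (log2 fold change -1.19, standard error 0.17, adjusted p = 0.0052) and fell, with an adjusted p of 0.052 without replicate B at 21 d. Tnn, a tenascin, was at 5.73 and 6.54 RPKM at 14 d and 14.0 and 13.9 RPKM at 21 d (log2 fold change 1.11, standard error 0.24, adjusted p = 0.031). Its call was lost with any one library left out (adjusted p 0.13 to 0.19), with library size in place of TMM and with the replicate block. Omd, given above, was the other fall. Fmod, a collagen-binding proteoglycan, was at 784 and 783 RPKM at 14 d and 1018 and 1006 RPKM at 21 d (log2 fold change 0.30, adjusted p = 0.11). Fmod passed the adjusted p threshold, under 2-fold, with DESeq2 and without the 24 h samples. The same held with only the 14 d and 21 d samples fitted, with no block, the replicate block or the crossed block.

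Wnt signalling, which promotes bone formation, had 2 higher and 3 lower calls among 28 genes (median -0.34). Of the ligands, Wnt5a, which acts outside the β-catenin route, was at 1.14 and 1.02 RPKM at 14 d and 2.72 and 2.84 RPKM at 21 d (log2 fold change 1.30, standard error 0.19, adjusted p = 0.0063). Of the inhibitors, Dkk2 was at 1.64 and 1.61 RPKM at 14 d and 3.79 and 3.56 RPKM at 21 d (log2 fold change 1.10, standard error 0.21, adjusted p = 0.019). Both were low at 14 d and rose, and the next 2 inhibitors fell. Notum, which removes the lipid of Wnt proteins, was at 3.80 and 2.69 RPKM at 14 d and 1.22 and 1.02 RPKM at 21 d (log2 fold change -1.62, standard error 0.23, adjusted p = 0.0050), and shares 708 exon bases with Notumos. Nkd2, which binds Dishevelled, was at 0.808 and 0.719 RPKM at 14 d and 0.236 and 0.201 RPKM at 21 d (log2 fold change -1.88, standard error 0.29, adjusted p = 0.0071). Tcf7, a nuclear partner of β-catenin, was the most abundant of the 5, at 103 and 98.0 RPKM at 14 d and 45.1 and 39.6 RPKM at 21 d (log2 fold change -1.32, standard error 0.16, adjusted p = 0.0026). Wnt5a and Dkk2 were high at 21 d and the other 3 low, with no overlap between times. For the whole list DESeq2 gave 2 higher and 5 lower calls, as did the fit of only the 14 d and 21 d samples. Limma on log2(RPKM + 1) gave 0 higher and 1 lower. Tcf7 kept its call with each library left out in turn. Wnt5a lost it without either 14 d library (adjusted p = 0.051 and 0.071), Notum without replicate B at 21 d (0.055), and Nkd2 without replicate A at 14 d or either 21 d library (0.056, 0.058 and 0.077). For Dkk2 the adjusted p was 0.10 to 0.14 with any one library left out. Ctnnb1, which encodes β-catenin, was at 385 and 385 RPKM at 14 d and 286 and 276 RPKM at 21 d (log2 fold change -0.53, standard error 0.11, adjusted p = 0.029), a change under 2-fold. Its adjusted p was 0.15 to 0.19 with any one library left out, and did not pass with library size in place of TMM, without a filter, with the replicate block or with limma.

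BMP and TGF-beta genes had 4 lower and 0 higher calls among 26 tested (median -0.02). Bmp4, a bone-inducing ligand, was at 13.3 and 14.3 RPKM at 14 d and 7.03 and 6.01 RPKM at 21 d (log2 fold change -1.15, standard error 0.20, adjusted p = 0.011). Ltbp2, of the family of latent TGF-beta binding proteins, was at 0.930 and 0.868 RPKM at 14 d and 0.464 and 0.372 RPKM at 21 d (log2 fold change -1.18, standard error 0.25, adjusted p = 0.029). Id3, an inhibitor of differentiation and BMP target, was at 73.5 and 76.3 RPKM at 14 d and 33.9 and 37.5 RPKM at 21 d (log2 fold change -1.14, standard error 0.16, adjusted p = 0.0051). All 3 were lower in both 21 d libraries. With any one library left out the adjusted p was 0.055 to 0.10 for Bmp4 and 0.11 to 0.20 for Ltbp2, and that of Id3 was 0.060 without replicate A at 21 d. Ltbp2 also lost its call with library size in place of TMM, with the replicate block and with limma. The list's calls fell to 2, 1, 0 and 2 without 14 d A, 14 d B, 21 d A and 21 d B. Its most abundant member by CPM, Ltbp1, was at 23.2 and 23.4 RPKM at 14 d and 29.1 and 28.0 RPKM at 21 d (log2 fold change 0.22, adjusted p = 0.29). With only the 14 d and 21 d samples fitted Ltbp1 passed the adjusted p threshold, under 2-fold, with no block, the replicate block or the crossed block. Notch and Hedgehog genes had 0 calls by edgeR among 17 (2 higher and 1 lower at an unadjusted p under 0.05, and 0 called by DESeq2), with Smo, the Hedgehog transducer, at 86.2 and 83.1 RPKM at 14 d and 84.2 and 85.0 RPKM at 21 d.

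In the IGF system 4 of 14 genes were called higher and 0 lower, with a median of -0.08. Of the binding proteins, Igfbp6 was at 17.3 and 15.9 RPKM at 14 d and 62.6 and 65.0 RPKM at 21 d (log2 fold change 1.87, standard error 0.24, adjusted p = 0.0035). Igfbp5 was at 6.29 and 6.38 RPKM at 14 d and 19.2 and 20.1 RPKM at 21 d (log2 fold change 1.56, standard error 0.22, adjusted p = 0.0050). Igfbp4, the most abundant, was at 112 and 108 RPKM at 14 d and 262 and 239.8 RPKM at 21 d (log2 fold change 1.12, standard error 0.09, adjusted p = 7.2e-04). These secreted proteins bind IGF and limit its access to the receptor. Pappa, the protease that cleaves Igfbp4, was at 0.141 and 0.127 RPKM at 14 d and 0.602 and 0.526 RPKM at 21 d (log2 fold change 1.99, standard error 0.35, adjusted p = 0.012). All 4 were higher in both 21 d libraries. Pappa had an adjusted p of 0.053 to 0.11 with any one library left out, and Igfbp5 one of 0.054 and 0.051 without replicate A or B at 14 d, and the count of calls was 2 without either of these.

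Of 24 oxidative stress genes 2 were called higher and 0 lower (8.3%, against 3.97% of all genes tested called in either direction, median 0.16). At an adjusted p under 0.05, 3 were higher and 1 lower. Hmox1, which degrades haem, was at 16 and 13.9 RPKM at 14 d and 36.5 and 34.6 RPKM at 21 d (log2 fold change 1.18, standard error 0.10, adjusted p = 7.3e-04). Gpx3, a secreted glutathione peroxidase, was at 0.363 and 0.319 RPKM at 14 d and 1.01 and 1.25 RPKM at 21 d (log2 fold change 1.65, standard error 0.25, adjusted p = 0.0072), and its adjusted p was 0.063, 0.081 and 0.082 without 14 d A, 14 d B or 21 d B. Mt1, a metal-binding metallothionein, was at 807 and 576 RPKM at 14 d and 1274 and 1243 RPKM at 21 d and higher in both 21 d libraries, but did not pass (log2 fold change 0.79, adjusted p = 0.16). Mt1 did pass the adjusted p threshold with DESeq2 and without the 24 h samples. It also passed with only the 14 d and 21 d samples fitted, with no block, the replicate block or the crossed block. Of 18 AP-1 and immediate early genes 2 were called higher and 0 lower (median 0.27), with 5 higher and 1 lower at an adjusted p under 0.05. Atf3, a stress-induced factor, was at 1.05 and 1.16 RPKM at 14 d and 5.02 and 4.74 RPKM at 21 d (log2 fold change 2.06, standard error 0.15, adjusted p = 4.6e-04). Fosb, an AP-1 subunit, was at 0.937 and 0.841 RPKM at 14 d and 1.81 and 1.94 RPKM at 21 d (log2 fold change 1.0, standard error 0.14, adjusted p = 0.0048), with an adjusted p of 0.059 without replicate B at 14 d. Its change was also under 2-fold with DESeq2, with limma on log2(RPKM + 1), with the gene length trend removed and without either replicate B. Myc was at 71.1 and 68.4 RPKM at 14 d and 65.4 and 59.6 RPKM at 21 d (log2 fold change -0.23, adjusted p = 0.18).

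Circadian clock genes had 1 call among 18, a higher one (5.6%, against 3.97% of all genes tested called in either direction, median 0.27). At an adjusted p under 0.05, 5 were higher and 0 lower. The called gene, Ciart, a repressor in the clock, was at 0.848 and 0.906 RPKM at 14 d and 2.93 and 2.61 RPKM at 21 d (log2 fold change 1.59, standard error 0.20, adjusted p = 0.0030). Per1, another clock repressor, was at 31.4 and 31.1 RPKM at 14 d and 32.0 and 31.8 RPKM at 21 d, with all 4 libraries close together. In the chemokine and mediator list, 2 of 21 were called, both higher (9.5%, against 3.97% of all genes tested called in either direction, median 0.35). Csf1, the growth factor of macrophages and osteoclast precursors, was at 61.7 and 62.6 RPKM at 14 d and 152 and 138 RPKM at 21 d (log2 fold change 1.15, standard error 0.12, adjusted p = 0.0016). Ptgs2, which makes prostaglandins, was at 0.387 and 0.391 RPKM at 14 d and 1.17 and 1.81 RPKM at 21 d (log2 fold change 1.87, standard error 0.33, adjusted p = 0.013). The adjusted p of Ptgs2 was 0.11, 0.10 and 0.085 without 14 d A, 14 d B or 21 d B. C1s1, a complement protease, was the list's most abundant gene and overlapped between times, at 354 and 324 RPKM at 14 d and 336 and 385 RPKM at 21 d.

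Of 30 genes of hypoxia and glycolysis 1 (3.3%) was called, against 3.97% of all genes tested (median -0.06). Vegfa, the angiogenic growth factor, was at 9.62 and 10.8 RPKM at 14 d and 26.3 and 26.9 RPKM at 21 d (log2 fold change 1.30, standard error 0.10, adjusted p = 5.8e-04). Gapdh, a glycolytic enzyme, was at 472 and 529 RPKM at 14 d and 425 and 456 RPKM at 21 d (log2 fold change -0.26, adjusted p = 0.22). Among 19 CDK inhibitors and p53 targets (median 0.16) Gdf15 was the single call (5.3%, against 3.97% of all genes tested). Cdkn1a, the CDK inhibitor p21, was at 187 and 184 RPKM at 14 d and 225 and 232 RPKM at 21 d (log2 fold change 0.23, adjusted p = 0.22), and Cdkn2a and Cdkn2b were at 0 counts in all 4 libraries. With only the 14 d and 21 d samples fitted Cdkn1a passed the adjusted p threshold, under 2-fold, with no block, the replicate block or the crossed block.

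Lists of basic cell functions had 0 calls by edgeR and by DESeq2. Of 30 nuclear genes of the respiratory chain, 29 had a negative log2 fold change and 9 were lower at an unadjusted p under 0.05 (median -0.31), and the median was between -0.33 and -0.22 over the alternatives run. At a DESeq2 adjusted p under 0.05, 5 of these genes were lower. Atp5b, of the ATP synthase, was at 247 and 239 RPKM at 14 d and 196 and 198 RPKM at 21 d (log2 fold change -0.38, adjusted p = 0.092). Atp5b passed the adjusted p threshold with library size in place of TMM, with DESeq2 and without the 24 h samples. It also passed with only the 14 d and 21 d samples fitted, with no block, the replicate block or the crossed block. Of 30 cytosolic ribosomal proteins, 0 had an unadjusted p under 0.05 (median 0.05), and Rplp0, of the ribosomal stalk, was at 3146 and 3043 RPKM at 14 d and 3027 and 3324 RPKM at 21 d. Lysosomal genes, 25 tested, had a median of 0.40, with 11 higher and 1 lower at an adjusted p under 0.05 and under 2-fold. Psap, the precursor of saposins, was at 652 and 633 RPKM at 14 d and 931 and 858 RPKM at 21 d (log2 fold change 0.40, standard error 0.10, adjusted p = 0.041). It did not pass with DESeq2 size factors, without a filter, with the replicate block or with any one library left out (adjusted p 0.14 to 0.28). The 10 mitochondrially encoded mRNAs in the table were at 0 counts in all 10 samples, so they give no measure of RNA quality.

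Markers of other cell types were mostly low. In bulk samples fewer cells of a type and less RNA per cell cannot be told apart, which holds for each list given here. Of 15 haematopoietic markers 10 were tested and 0 called by edgeR (0 at an unadjusted p under 0.05, and 0 called by DESeq2), and Ptprc, Cd3e and Hbb-bs were at 0. Their summed level was 28.6 and 243 RPKM at 14 d and 285 and 30.3 RPKM at 21 d, a difference between replicates and not between times. It lay in Tyrobp, a signalling adaptor of myeloid cells, at 0.497 and 214 RPKM at 14 d and 256 and 0.268 RPKM at 21 d. Counts of Tyrobp and 6 neighbouring genes stood in the same ratios to each other in 14 d B and 21 d A, and whether they measure expression was not tested. Without Tyrobp the sums were 28.1, 29.4, 28.5 and 30.1 RPKM. Osteoclast markers, 3 of 9 tested, had 0 calls (1 higher and 1 lower at an unadjusted p under 0.05, and 0 called by DESeq2), with sums of 144 and 138 RPKM at 14 d and 190.5 and 176 RPKM at 21 d. Their most abundant gene was Ctsk, the protease cathepsin K, at 132 and 127 RPKM at 14 d and 179.7 and 166 RPKM at 21 d, and Dcstamp and Calcr were at 0. Ctsk passed the adjusted p threshold, under 2-fold, in 9 of 19 alternatives, among them DESeq2 and limma.

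Endothelial markers, 6 of 11 tested, summed to 8.56 and 8.18 RPKM at 14 d and 10.4 and 9.33 RPKM at 21 d, with Flt1, a VEGF receptor, at 8.29 and 7.90 RPKM at 14 d and 9.77 and 8.90 RPKM at 21 d, and Emcn and Cldn5 at 0. The 1 call was Vwf, the blood-clotting factor, at 0.0666 and 0.0738 RPKM at 14 d and 0.387 and 0.248 RPKM at 21 d (log2 fold change 2.10, standard error 0.35, adjusted p = 0.010), lost without 14 d A, 14 d B or 21 d A (adjusted p = 0.098, 0.082 and 0.084). Adipocyte markers, 5 of 11 tested, summed to 8.0 and 7.79 RPKM at 14 d and 9.78 and 10.2 RPKM at 21 d, with Cfd and Retn at 0 and Cebpa, an adipogenic factor, at 6.31 and 6.66 RPKM at 14 d and 6.06 and 6.55 RPKM at 21 d. Plin4, a lipid droplet protein, was the 1 call, at 0.347 and 0.143 RPKM at 14 d and 2.32 and 2.30 RPKM at 21 d (log2 fold change 3.14, standard error 0.56, adjusted p = 0.014), with an adjusted p of 0.10, 0.085 and 0.078 without 14 d B, 21 d A or 21 d B. Levels of Vwf were below 1 RPKM in all 4 libraries, and those of Plin4 in both at 14 d.

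Chondrocyte markers, 10 of 12 tested, summed to 297 and 309 RPKM at 14 d and 167 and 183 RPKM at 21 d, most of it Col2a1, with 1 higher and 3 lower calls. Col10a1, the collagen of hypertrophic cartilage, rose from 0.118 and 0.212 to 1.67 and 5.88 RPKM (log2 fold change 4.48, standard error 0.70, adjusted p = 0.0079). Its 21 d libraries differed from each other by more than 3-fold and both lay above 14 d, and its adjusted p was 0.086 without 14 d A and 0.056 without 14 d B. It lies within Nt5dc1, with which it shares 18 exon bases. Matn3 and Col9a1, cartilage matrix proteins, both fell. Matn3 went from 0.322 and 0.343 to 0.0475 and 0.104 RPKM (log2 fold change -2.11, standard error 0.31, adjusted p = 0.0058), a call lost with limma on log2(RPKM + 1). Col9a1 went from 0.451 and 0.584 to 0.125 and 0.129 RPKM (log2 fold change -2.09, standard error 0.31, adjusted p = 0.015). The adjusted p of Col9a1 was 0.073 to 0.13 with any one library left out. What part these marker genes have in other results was not tested.

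Smooth muscle and myofibroblast markers, 11 of 11 tested, had 0 calls (0 higher and 1 lower at an unadjusted p under 0.05, and 0 called by DESeq2) and summed to 909 and 955 RPKM at 14 d and 882 and 934 RPKM at 21 d. Acta2 was the most abundant per length, and Tpm1, an actin-binding tropomyosin, was at 205 and 194 RPKM at 14 d and 136 and 132 RPKM at 21 d (log2 fold change -0.65, standard error 0.10, adjusted p = 0.0070), with adjusted p-values of 0.068 to 0.077 when any one library was left out. Skeletal muscle markers, 5 of 10 tested, had 0 calls (0 at an unadjusted p under 0.05, and 0 called by DESeq2), summed to 19.8 and 15.8 RPKM at 14 d and 15.2 and 15.6 RPKM at 21 d, and had Myod1, Myog and Myf5 at 0 and Acta1, an actin, at 18.7 and 15.3 RPKM at 14 d and 14.3 and 14.4 RPKM at 21 d. Of 9 neuron markers 1 was tested, Tubb3, a β-tubulin that fell from 26.0 and 24.4 to 9.61 and 8.37 RPKM (log2 fold change -1.56, standard error 0.14, adjusted p = 8.8e-04), while Nefl, Nefm and Stmn2 were at 0. Epithelial markers, 3 of 7 tested, had 0 calls (0 at an unadjusted p under 0.05, and 0 called by DESeq2), summed to 11.2 and 6.36 RPKM at 14 d and 9.77 and 11.2 RPKM at 21 d, with Epcam and Krt18 at 0 and Krt14, a keratin, at 8.61 and 5.68 RPKM at 14 d and 8.94 and 8.96 RPKM at 21 d.

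The largest single falls and rises went beyond the lists. Txnip (GRCm38 chr3:96557957-96561883, plus strand), an arrestin-like protein that limits glucose uptake and binds thioredoxin, fell most among the called genes that averaged 5 or more CPM, from 81.6 and 74.9 to 7.93 and 7.29 RPKM (log2 fold change -3.44, standard error 0.11, adjusted p = 5.7e-05). Car3, a carbonic anhydrase, was at 45.0 and 51.5 RPKM at 14 d and 6.76 and 4.92 RPKM at 21 d (log2 fold change -3.13, standard error 0.25, adjusted p = 6.1e-04). Both were low in both 21 d libraries. Gm10256, annotated on chromosome Y, was at 14.8 and 8.90 RPKM at 14 d and 1.2 and 2.05 RPKM at 21 d (log2 fold change -2.92, standard error 0.56, adjusted p = 0.017), but 98.0% of its 51-base words occur in other genes, and its call was lost with the 2 lanes summed and with any one library left out (adjusted p 0.050 to 0.14).

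Avil (GRCm38 chr10:127000709-127020994, plus strand), the actin-binding protein advillin, rose most among the called genes that averaged 5 or more CPM, from 1.12 and 0.748 to 33.9 and 27.2 RPKM (log2 fold change 4.94, standard error 0.27, adjusted p = 2.5e-04). It shares 165 exon bases with Tsfm on the opposite strand, whose log2 fold change was 0.28. Sspo, a large secreted glycoprotein, was at 0.0459 and 0.0481 RPKM at 14 d and 1.26 and 1.53 RPKM at 21 d (log2 fold change 4.82, standard error 0.40, adjusted p = 6.9e-04). Cdsn (GRCm38 chr17:35552128-35557180, plus strand), the adhesion protein corneodesmosin, was at 14.7 and 12.5 RPKM at 14 d and 243 and 225 RPKM at 21 d (log2 fold change 4.03, standard error 0.13, adjusted p = 5.7e-05). These 3 genes were low in both 14 d libraries, and at 21 d Cdsn stood near the level of Pdia6. Pi16, a secreted peptidase inhibitor, was at 0.326 and 0.265 RPKM at 14 d and 3.68 and 4.17 RPKM at 21 d (log2 fold change 3.65, standard error 0.35, adjusted p = 0.0010). Phyhd1, a dioxygenase-like protein, was at 1.70 and 1.76 RPKM at 14 d and 15 and 14.3 RPKM at 21 d (log2 fold change 3.01, standard error 0.15, adjusted p = 2.0e-04), with 38.3% of its words in other genes. Angptl6, an angiopoietin-like protein, was at 1.58 and 1.18 RPKM at 14 d and 18.4 and 18.1 RPKM at 21 d (log2 fold change 3.65, standard error 0.53, adjusted p = 0.0058), shares 265 exon bases with A230050P20Rik (log2 fold change 3.91), and lost its call without 14 d A or 14 d B (adjusted p = 0.057 and 0.075). Plac9a was at 7.15 and 7.25 RPKM at 14 d and 63.4 and 74.9 RPKM at 21 d (log2 fold change 3.19, standard error 0.60, adjusted p = 0.017), with 99.7% of its words in other genes and an adjusted p of 0.070 to 0.14 with any one library left out. Each of these 4 was also higher in both 21 d libraries.

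The most abundant genes that fell include tubulin genes and pseudogenes. Tuba1a, an α-tubulin of microtubules, was at 737 and 672 RPKM at 14 d and 324 and 349 RPKM at 21 d (log2 fold change -1.14, standard error 0.14, adjusted p = 0.0032). Tuba1b was at 802 and 729 RPKM at 14 d and 350.2 and 389 RPKM at 21 d (log2 fold change -1.12, standard error 0.15, adjusted p = 0.0042). Tuba1c was at 596 and 581 RPKM at 14 d and 275 and 300.4 RPKM at 21 d (log2 fold change -1.11, standard error 0.13, adjusted p = 0.0025). Between 52.5% and 75.4% of their words occur in other genes, and without 21 d A the adjusted p of Tuba1b was 0.055. The pseudogenes Gm6682, Gm17383, Gm3756, Gm14150 and Gm5620, of which 51.2% to 100% of words occur in other genes, had log2 fold changes from -1.14 to -1.10. Reads of these 8 genes cannot all be told apart, so they are not 8 separate observations. Cpe, a carboxypeptidase that processes prohormones, was at 483 and 515 RPKM at 14 d and 263 and 242 RPKM at 21 d (log2 fold change -1.06, standard error 0.10, adjusted p = 9.1e-04), lower in both 21 d libraries. Its call was lost, with a change under 2-fold, with library size or upper-quartile factors in place of TMM, with limma and without replicate B at 14 d.

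By RPKM, though not by counts, the most abundant transcript that rose was 2410006H16Rik, annotated as a processed transcript, at 708 and 792 RPKM at 14 d and 1849 and 2029 RPKM at 21 d (log2 fold change 1.30, standard error 0.29, adjusted p = 0.032). Gm28006 is a short RNA annotated wholly within Neat1 (log2 fold change 1.27), in which 100% of its 51-base words also occur. Gm28006 was at 122 and 119 RPKM at 14 d and 331 and 275 RPKM at 21 d (log2 fold change 1.26, standard error 0.30, adjusted p = 0.040). Both were higher in both 21 d libraries, but their calls were lost with the replicate block, that of Gm28006 also with library size in place of TMM, with limma on log2(RPKM + 0.1) and with the gene length trend removed. With any one library left out their adjusted p-values were 0.13 to 0.20 and 0.12 to 0.22. The demethylase Kdm1a was at 12.8 and 12.6 RPKM at 14 d and 11.9 and 11.7 RPKM at 21 d, within a narrow range at both times (log2 fold change -0.18, adjusted p = 0.17). Kdm1a did pass the adjusted p threshold, under 2-fold, with only the 14 d and 21 d samples fitted and without the 24 h samples.

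Confluent and subconfluent cells, which share no sample with the 14 d and 21 d groups, give the direction of the called genes at an earlier step. Of the 509 genes lower at 21 d, 379 had a negative and 129 a positive log2 fold change in confluent against subconfluent cells (median -0.27), but of those called in that comparison 35 were higher and 7 lower. Of the 317 higher at 21 d, 141 were positive and 176 negative there (median -0.08), with 10 called higher and 13 lower. Over all genes tested 10404 were positive and 10317 negative, with 209 called higher and 88 lower.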

How the data were processed

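RNA-seq counts on 40620 genes were deposited by the authors as whole numbers, and the deposited RPKM values divide counts by gene length and sequencing depth. Per the submitters' processing notes reads were checked with FastQC and aligned to mm10 with TopHat2 2.0.9, with R 3.0.1 used after; the counting tool and strand setting are not given in the sources used here. Merged columns served for 14 d A and 21 d B, although summing the 2 lanes gave another count for 13526 and 13582 genes. In R 4.3.3 with edgeR 4.0.16, filterByExpr over 5 groups kept 20808 genes, TMM factors were applied, and all 10 samples entered 1 quasi-likelihood fit of the 5 groups. P-values of 21 d against 14 d were adjusted by Benjamini-Hochberg, and standard errors were obtained by dividing log2 fold changes by √F. No source says that A and B were separate cultures, so p-values measure the spread between these samples only. That spread is pooled over the replicates of all 5 groups, not of 14 d and 21 d alone. TMM factors of the 24 h replicates were 0.90 and 1.06. Without the 24 h samples 7737 of 19994 genes had an unadjusted p under 0.05 by the same test, against 4950 of 20808 in the main fit. Replicates A and B differed by a log2 ratio with an SD of 0.32 at 14 d and 0.28 at 21 d over the 16133 genes that reached 10 counts in all samples.

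Identifiers were matched to GENCODE vM21 on GRCm38 (39632 with a symbol), whose exons gave shared bases and 51-base words, and promoters came from RefSeq. Genes named are the 10 strongest rises and falls of called genes that averaged 5 or more CPM without overlap, the 10 most abundant called genes in each direction, Runx2, Sp7, Alpl, Bglap, Dmp1 and Kdm1a, up to 3 called members each way and the most abundant member of each of 27 pathway lists, and the most abundant and any called member of 9 lists of other cell types. Of the genes so selected, 1 is not reported. The members and lists were chosen with earlier results of these data known, and lists were not tested. Alternatives were other normalizations and filters, fewer samples, a replicate block, DESeq2 1.42.0, limma 3.58.1 on log2 RPKM, summed lanes, removal of a gene length trend, other thresholds, each library left out, and, chosen after seeing the data, a crossed block and protein-coding genes alone. The pipeline was tested on simulated data. Tables were made with Python 3.11.15, pandas 2.3.3 and numpy 2.4.6.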

Additional observations from a re-analysis of the deposited data

How the results depend on the processing

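Of 128 genes that the naming rule selects, 97 were called. Of 19 settings, the filter of at least 10 counts in every sample left 10 of the 97 untested. In each setting that tested them all 97 kept their sign, 65 stayed past the adjusted p threshold and 63 past the 2-fold bound as well. In the 15 settings that keep all 4 libraries 88 stayed past the adjusted p threshold. Some of the 128 genes passed that threshold only in an alternative. These numbered 11 with only the 14 d and 21 d samples fitted, 8 without the 24 h samples and 4 with DESeq2. Runx2, Serpinh1, Mmp2, B2m and Gapdh passed it in 1 alternative each. With limma-trend on log2(RPKM + 1) 17 were under 2-fold, Bmp4, Col1a1, Col9a1, Cpe, Dkk2, Fosb, Gpx3, Ltbp2, Matn3, Nkd2, Nlrc5, Notum, Pappa, Ptgs2, Slc7a11, Vwf and Wnt5a. Over all genes tested the calls numbered 826, 317 higher and 509 lower. Limma-trend on log2(RPKM + 1) called 536, of which 315 were lower. At any fold 2023 were called, 784 higher and 1239 lower. Above 4-fold 237 were called, 116 higher and 121 lower, and at an adjusted p under 0.01 192 were higher and 398 lower. With only the 14 d and 21 d samples fitted 1097 were called, 518 higher and 579 lower. Without one library in turn the calls ranged from 544 to 652 and the higher calls from 168 to 213, where the lone sample of a group is assumed to vary like the other groups. The replicate block gave 731 calls, 265 higher and 466 lower, with all samples fitted, and 965 calls, 437 higher and 528 lower, with only the 14 d and 21 d samples. On the latter samples a crossed block, 14 d A with 21 d B, gave 1018 with 468 higher and 550 lower (chosen after seeing the data). Tyrobp, uncalled at 0.17, ranged from -8.71 to 7.94 with one library left out, its replicates differing at both times. Sign changes of uncalled genes smaller than their standard error were not counted. The other settings gave counts within 1.5 times the reported ones. With 2 libraries a group, a gene that was not called may still have changed.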

Other observations

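Counts of 7 neighbouring genes on chromosome 7 stood in the same ratios in several libraries. Tyrobp, Hcst, Nfkbid, Aplp1, Kirrel2, Nphs1 and Nphs1os had 3940, 3152, 9456, 13396, 11820, 20488 and 1576 counts in 14 d B. In 21 d A they had 5015, 4012, 12036, 17051, 15045, 26079 and 2006 counts. In confluent B they had 10810, 8648, 25944, 36754, 32430, 56214 and 4324 counts. The merged column of 14 d A gave 25 counts for Tyrobp, 20 for Hcst and 130 for Nphs1, while its 2 lanes summed to 0 for each of these 3. In 21 d B Tyrobp had 12 counts and Hcst 0. The cause was not tested, nor whether these counts measure expression.

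Such disagreement between replicates was not limited to that place. Of 16300 genes with over 1 CPM in some sample, 117 differed by more than 8-fold between the 14 d replicates, 138 between the 21 d replicates, and 57 between both. In 46 of the 57, 14 d A and 21 d B were on the same side. Both are the deeper library of their time and were taken from merged columns. Over the 16133 genes with 10 counts in all samples, log2 ratios of A over B at 14 d and 21 d correlated at -0.24. The cause was not tested. By edgeR 0 of the 57 were called in 21 d against 14 d. Genes chosen for replicates this far apart could hardly pass, so that count says nothing about other genes. Genes annotated as snoRNA, miRNA or unprocessed pseudogene made up 23 of the 57.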
